A study of Capra hircus with 9 samples.

Results

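Toll-like receptors bind molecules of microbes, and NF-kB is the family of transcription factors that they switch on. The 10 genes described here are the receptors TLR2 and TLR4, the coreceptor CD14, the signal carriers MYD88, IRAK1 and TRAF6, the NF-kB subunits RELA and NFKB1, and the inhibitors NFKBIA and TNFAIP3. They were taken by name from the first column of each file, and all 10 were listed in all 9 libraries, out of 18383 genes named in the series. The tissue was the epithelium of the rumen, the fermentation chamber of the ruminant stomach, taken from 4-month-old goats and profiled by RNA-seq. Diet defined the groups: HC, MC and LC stand for 3 types of concentrate diet, with n = 3 libraries for each. The labels do not spell out the letters and name no other treatment, strain or genotype. Whether each library is a different goat is not stated, so p-values here measure only the spread between these samples, which may be technical.

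In the textbook pathway, known mainly from mouse and human, a bound receptor recruits the adaptor MYD88. MYD88 gathers IRAK kinases, which activate the ubiquitin ligase TRAF6. TRAF6 leads to the IkB kinase complex, which marks the inhibitor NFKBIA for destruction and so frees NF-kB dimers to enter the nucleus. Genes switched on there include NFKBIA and TNFAIP3 themselves, which then damp the signal. The rumen wall lies against a dense microbial community, and its lining is a stratified squamous epithelium with scattered immune cells.

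Values are FPKM, fragments scaled to transcript length and to the mapped fragments of the library, so levels of different genes are on a scale per length. The sum of FPKM was 755624 in LC1 and 903006 to 1051183 in the other libraries, and depth is unknown because the files hold no counts. Summed markers of stratified epithelium overlapped between the diets, with 4987 to 7276 FPKM in HC, 5770 to 6869 FPKM in MC and 4757 to 7328 FPKM in LC. That sum is mostly KRT5 and KRT14, and 3 of its 8 genes passed the limma F test over the diets, against 45.2% of all tested genes. KRT4 had 21.1 ± 7.09 FPKM in HC, 2.03 ± 0.331 FPKM in MC and 53.8 ± 19.9 FPKM in LC (SD, n = 3 each). DSG3 had 180.0 ± 24.7 FPKM in HC, 339 ± 65.6 FPKM in MC and 368.5 ± 84.6 FPKM in LC. TP63 had 84.1 ± 6.09 FPKM in HC, 62.2 ± 5.35 FPKM in MC and 79.96 ± 6.18 FPKM in LC. Their limma adjusted p in the F test was 2.71e-05 for KRT4, 0.00334 for DSG3 and 0.0356 for TP63, and the part of such epithelial differences in the results was not tested. Summed smooth muscle markers stood at 122 to 159 FPKM in HC, at 1292 to 4001 FPKM in MC and at 2630, 1400 and 66.6 FPKM in LC1, LC2 and LC3. The HC files also differ from the others in a header word and in holding empty lines, so the diet and the making of the files cannot be told apart for HC. In such tissue samples, fewer cells of a type and less RNA per cell cannot be told apart. Log2 changes are on the scale of log2(FPKM + 1) from limma, with Benjamini-Hochberg adjustment over 11668 genes, a threshold of 0.05 and n = 3 libraries per diet. The HC minus LC and MC minus LC comparisons share the LC libraries.

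**Figure D1:**
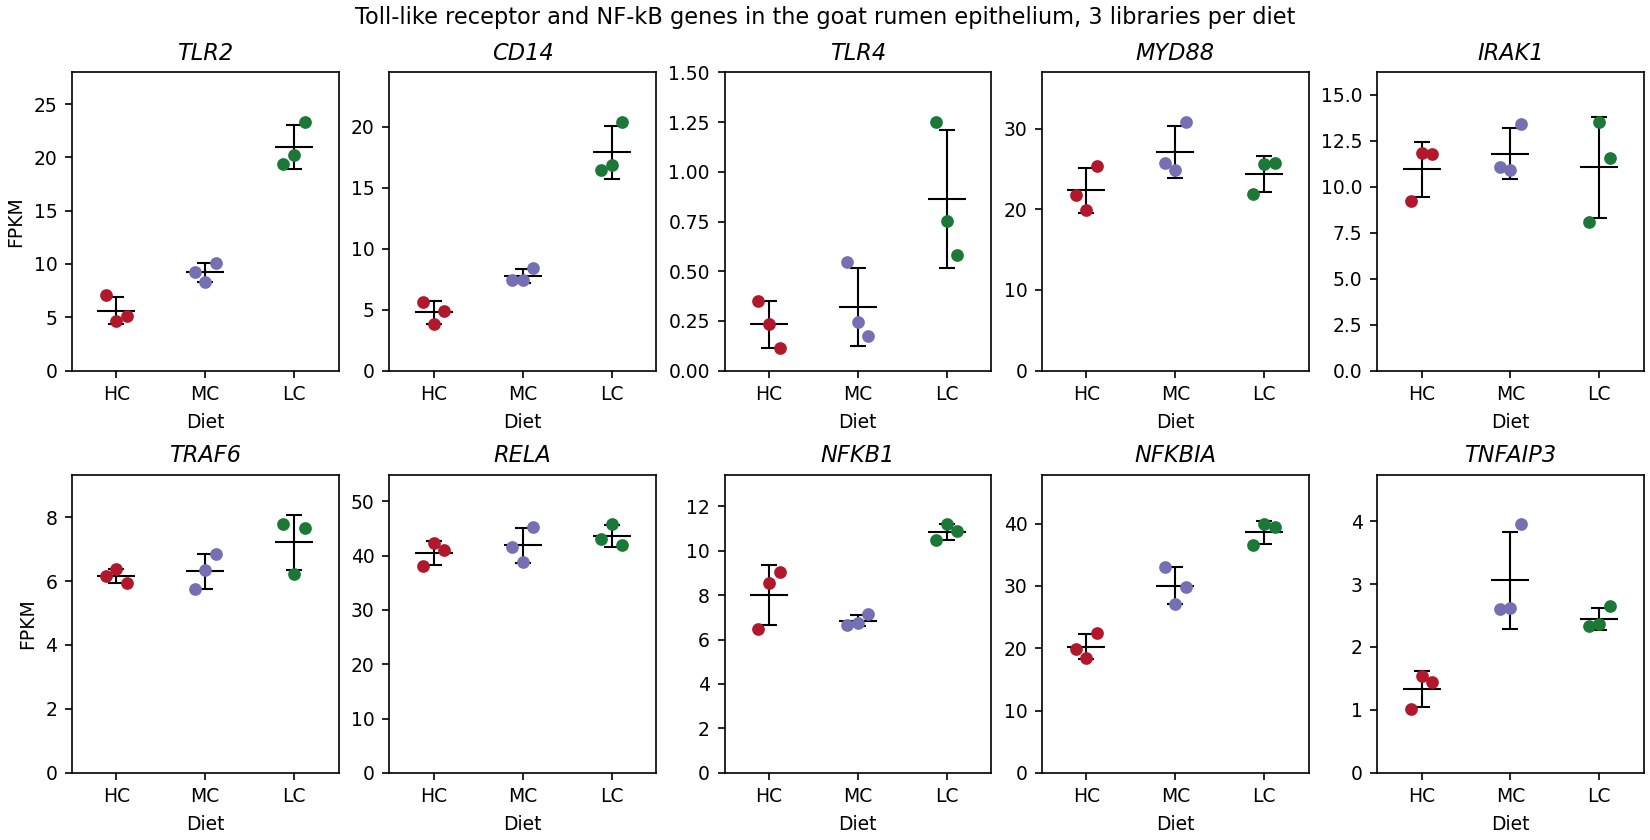
FPKM of the 10 genes (y axes, linear and starting at 0) by diet (x axes), with 1 point per library in the order of replicate number and the mean with its SD in black (n = 3). TLR2, CD14 and NFKBIA are lowest in HC, intermediate in MC and highest in LC with no overlap, while RELA lies between 38.1 and 45.8 FPKM in all 9 libraries.

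TLR2 and CD14 had the largest log2 changes against LC of the 9 tested genes on the log2(FPKM + 1) scale, and both were lowest in HC and highest in LC. TLR2, which binds bacterial lipoproteins and lipoteichoic acid together with TLR1 or TLR6, had 7.06, 4.64 and 5.12 FPKM in HC1 to HC3, 9.27, 8.28 and 10.1 FPKM in MC1 to MC3, and 19.4, 20.2 and 23.3 FPKM in LC1 to LC3. No library of one diet overlapped with another diet, and in the files' own coordinates, whose build is not stated, the gene lies on chromosome 17 from 3880921 to 3890889. The TLR2 mean was 5.61 ± 1.28 FPKM in HC against 21.0 ± 2.07 FPKM in LC (SD, n = 3 each), a log2 change of -1.75 ± 0.15 (SE, limma adjusted p = 1.41e-05). In MC the TLR2 mean was 9.22 ± 0.911 FPKM, which lay below LC by a log2 change of -1.10 ± 0.15 (limma adjusted p = 0.000207). HC also lay below MC, with a log2 change of -0.64 ± 0.15 for TLR2 (limma adjusted p = 0.00921).

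CD14, a surface protein that hands lipopolysaccharide and lipopeptides to Toll-like receptors, had 5.61, 3.799 and 4.92 FPKM in HC1 to HC3, 7.41, 7.43 and 8.44 FPKM in MC1 to MC3, and 16.4, 16.9 and 20.4 FPKM in LC1 to LC3. CD14 lies on chromosome 7 from 47954629 to 47957808. Again the diets did not overlap, and LC3 had the highest value of both TLR2 and CD14. The CD14 mean was 4.78 ± 0.916 FPKM in HC against 17.9 ± 2.17 FPKM in LC (SD, n = 3 each), a log2 change of -1.72 ± 0.14 (SE, limma adjusted p = 1.18e-05). The log2 change of CD14 was -1.11 ± 0.14 in MC minus LC (limma adjusted p = 0.000153) and -0.61 ± 0.14 in HC minus MC (limma adjusted p = 0.00938). With LC3, the LC library low in smooth muscle RNA, standing alone for LC, the HC minus LC change was -1.90 for TLR2 (limma adjusted p = 0.00104) and -1.90 for CD14 (limma adjusted p = 0.000787).

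TLR2 and CD14 kept nearly the same proportion in all libraries. Within a library the ratio of CD14 to TLR2 FPKM was 0.795, 0.818 and 0.961 in HC, 0.800, 0.897 and 0.835 in MC, and 0.847, 0.834 and 0.874 in LC. Likeness to TLR2 and CD14 was measured over all 11668 tested genes as the root mean square difference of log2(FPKM + 1) over the 9 libraries, after centring each gene on its mean. CD14 was the gene nearest to TLR2, and TLR2 the gene nearest to CD14, at 0.0718 on that log2 scale, against a median over all genes of 0.743 for TLR2 and 0.731 for CD14. Next after CD14 for TLR2 were ABO, the blood group glycosyltransferase, at 0.130 and the claudin CLDN23 at 0.158. Next after TLR2 for CD14 were CLDN23 at 0.129 and the ubiquitin ligase DTX3L at 0.140. ABO had 5.96 ± 0.586 FPKM in HC, 10.99 ± 1.12 FPKM in MC and 23.1 ± 2.13 FPKM in LC (SD, n = 3 each).

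TLR4, the receptor for lipopolysaccharide on chromosome 8 (104998580 to 105008477), was the lowest of the 10 genes in every diet and reached 1 FPKM only in LC1, so it was left out of the test. TLR4 had 0.351, 0.232 and 0.114 FPKM in HC1 to HC3, 0.545, 0.244 and 0.174 FPKM in MC1 to MC3, and 1.25, 0.754 and 0.583 FPKM in LC1 to LC3. The HC and MC libraries overlapped, and the LC libraries lay above both. In the fit without a filter on low values, which tests TLR4 among all genes listed in every library, TLR4 had a log2 change of -0.58 ± 0.15 in HC minus LC (SE, limma adjusted p = 0.0176) and -0.49 ± 0.15 in MC minus LC (limma adjusted p = 0.0298). In HC minus MC the log2 change of TLR4 was -0.09 (limma adjusted p = 0.689). Markers of endothelium and fibroblasts were also highest in LC1, with sums of 46.2 and 514 FPKM there, and their part in the TLR4 values was not tested.

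The inhibitor NFKBIA followed the same order of diets over a smaller range. NFKBIA, which holds NF-kB dimers in the cytoplasm and lies on chromosome 21 from 43153360 to 43155788, had 19.9, 18.5 and 22.4 FPKM in HC1 to HC3, 33.1, 27.2 and 29.8 FPKM in MC1 to MC3, and 36.5, 39.9 and 39.4 FPKM in LC1 to LC3. The diets did not overlap. Its mean was 20.3 ± 2.0 FPKM in HC against 38.6 ± 1.83 FPKM in LC (SD, n = 3 each), with a log2 change of -0.90 ± 0.12 (SE, limma adjusted p = 0.000419). HC also lay below the MC mean of 30.02 ± 2.98 FPKM, with a log2 change of -0.54 ± 0.12 for NFKBIA (limma adjusted p = 0.00869). That call was lost with the smooth muscle marker mean as a covariate (log2 change -0.60, limma adjusted p = 0.0872). MC minus LC just passed for NFKBIA (log2 change -0.36 ± 0.12, limma adjusted p = 0.0428), and this call was lost in 8 of 18 alternative fits. Among them were those without HC replicate 3 (limma adjusted p = 0.0561), MC replicate 2 (0.156), MC replicate 3 (0.0925), LC replicate 2 (0.116) or LC replicate 3 (0.105).

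TLR2, CD14 and NFKBIA were thus 3 of the 10 genes in which all HC libraries lay below all MC libraries and all MC libraries below all LC libraries, an order found in 2.24% of the tested genes. All LC libraries lay above all others for TLR2, CD14, NFKBIA, TLR4 and NFKB1 (14.2% of tested genes), and all HC libraries below all others for TLR2, CD14, NFKBIA and TNFAIP3 (11.8% of tested genes). The level of NFKBIA relative to RELA, the NF-kB subunit that it binds, moved with it. The ratio of NFKBIA to RELA FPKM within a library was 0.522, 0.436 and 0.546 in HC, 0.795, 0.698 and 0.658 in MC, and 0.850, 0.871 and 0.938 in LC. Such a ratio does not depend on how the libraries are scaled, and it did not overlap between the diets.

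TNFAIP3, a ubiquitin-editing enzyme that shuts down signalling through TRAF6 and the TNF receptor, had another pattern. It had 1.02, 1.54 and 1.44 FPKM in HC1 to HC3, 2.61, 2.62 and 3.95 FPKM in MC1 to MC3, and 2.33, 2.37 and 2.65 FPKM in LC1 to LC3. The gene lies on chromosome 9 from 62336401 to 62352230. All HC libraries lay below all others, while MC and LC overlapped. The TNFAIP3 mean was 1.33 ± 0.278 FPKM in HC against 3.06 ± 0.771 FPKM in MC (SD, n = 3 each), with a log2 change of -0.79 ± 0.16 (SE, limma adjusted p = 0.00477). Against the LC mean of 2.45 ± 0.175 FPKM the log2 change of TNFAIP3 in HC was -0.57 ± 0.16 (limma adjusted p = 0.0213). This second call was lost after quantile normalization (log2 change -0.32, limma adjusted p = 0.216), without HC replicate 1 (0.0694), HC replicate 3 (0.0504) or LC replicate 3 (0.0599), and with LC3 alone for LC (0.103). MC minus LC did not pass for TNFAIP3 (log2 change 0.22, 95% interval -0.12 to 0.56, limma adjusted p = 0.31).

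NFKB1, which encodes the precursor of the NF-kB subunit that pairs with RELA, was highest in LC. It had 6.49, 8.54 and 9.03 FPKM in HC1 to HC3, 6.67, 6.75 and 7.15 FPKM in MC1 to MC3, and 10.5, 11.2 and 10.9 FPKM in LC1 to LC3. All LC libraries lay above the other diets, while HC and MC overlapped. The NFKB1 mean was 6.85 ± 0.258 FPKM in MC against 10.9 ± 0.358 FPKM in LC (SD, n = 3 each), with a log2 change of -0.59 ± 0.13 (SE, limma adjusted p = 0.00373). That call was lost with LC3 alone for LC (log2 change -0.60, limma adjusted p = 0.0528). In HC, with a mean of 8.02 ± 1.35 FPKM, the log2 change of NFKB1 against LC was -0.40 ± 0.13 (limma adjusted p = 0.0347), and this call was lost in 9 of 18 alternative fits. Both scalings were among them (limma adjusted p = 0.0944 after median-of-ratios scaling of NFKB1 and 0.148 after quantile normalization), as were the fits without HC replicate 1 (0.103), MC replicate 2 (0.0525), LC replicate 2 (0.0933) or LC replicate 3 (0.0764). NFKB1, on chromosome 6 from 20547199 to 20649170, shares its locus in the files with another gene of no assigned name, so its values are uncertain.

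MYD88, IRAK1, TRAF6 and RELA did not pass the test in any contrast. MYD88 had 19.95 to 25.4 FPKM in HC, 24.8 to 30.8 FPKM in MC and 21.9 to 25.7 FPKM in LC. IRAK1, the kinase bound by MYD88, had 9.20 to 11.8 FPKM in HC, 10.9 to 13.4 FPKM in MC and 8.10 to 13.5 FPKM in LC. TRAF6 had 5.94 to 6.37 FPKM in HC, 5.75 to 6.84 FPKM in MC and 6.22 to 7.78 FPKM in LC. RELA, the main activating subunit, had 38.1 to 42.4 FPKM in HC, 38.9 to 45.3 FPKM in MC and 42.0 to 45.8 FPKM in LC. For each of these 4 genes the libraries of any pair of diets overlapped. In the files' coordinates MYD88 lies on chromosome 22 from 11447296 to 11451303, TRAF6 on chromosome 15 from 63570717 to 63584743 and RELA on chromosome 29 from 41649030 to 41657169. IRAK1 lies on an unplaced scaffold.

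The intervals show what sizes these data still allow. In HC minus LC the 95% interval of the log2 change was -0.42 to 0.17 for MYD88, -0.37 to 0.38 for IRAK1, -0.45 to 0.07 for TRAF6 and -0.36 to 0.15 for RELA, and limma adjusted p ran from 0.25 for TRAF6 to 0.985 for IRAK1. In MC minus LC the intervals were -0.15 to 0.44 for MYD88, -0.27 to 0.48 for IRAK1, -0.42 to 0.09 for TRAF6 and -0.31 to 0.20 for RELA. In HC minus MC the interval for MYD88 was -0.56 to 0.02, and its limma adjusted p of 0.159 was the lowest among these 4 genes in any contrast. The ratio of TLR2 to MYD88 FPKM within a library was 0.202 to 0.325 in HC, 0.328 to 0.360 in MC and 0.789 to 0.907 in LC.

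**Figure D2:**
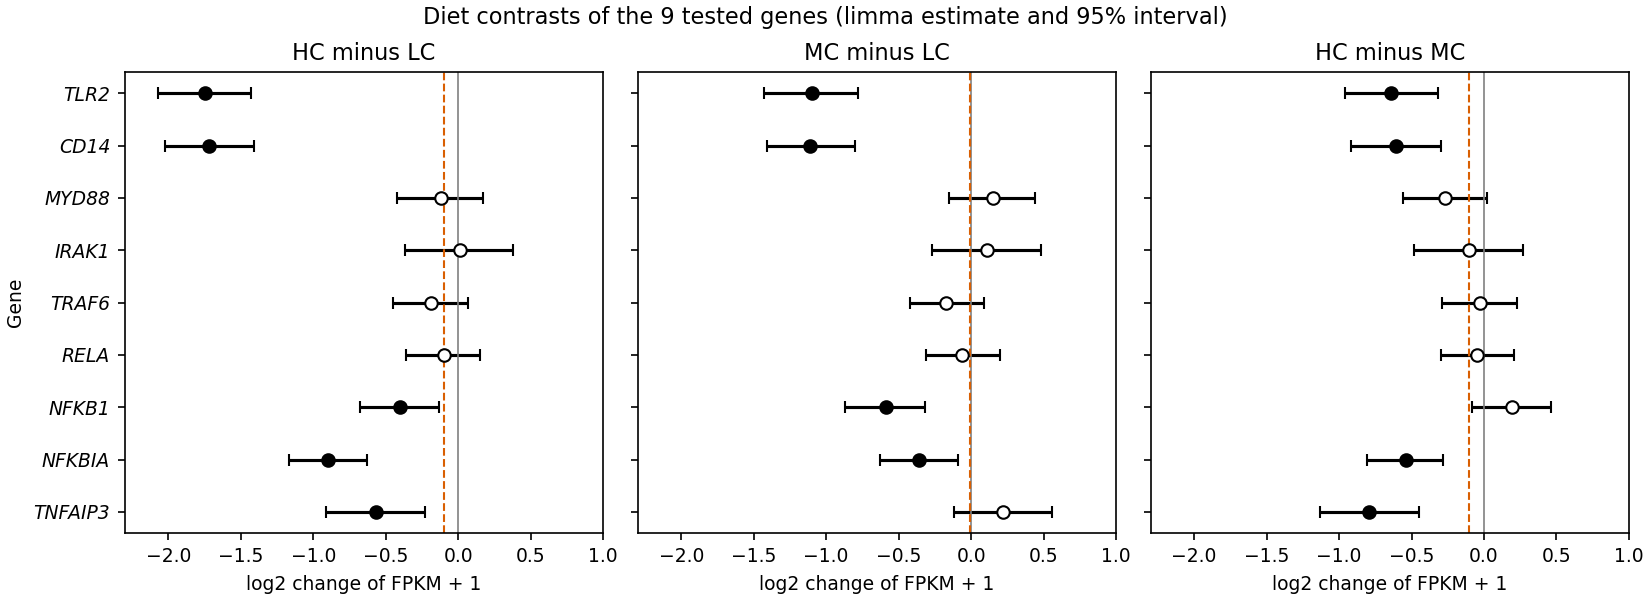
Log2 changes of FPKM + 1 (x axes) for the 9 tested genes (y axis) in the 3 contrasts, with 95% intervals from limma, filled points past the threshold of 0.05 and a dashed line at the median of all tested genes. TLR2 and CD14 lie farthest below 0 in HC minus LC, at -1.75 and -1.72, and the intervals of MYD88, IRAK1, TRAF6 and RELA cross 0 in every contrast.

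Counted together, 5 of the 9 tested genes passed the limma F test over the 3 diets, TLR2, CD14, NFKB1, NFKBIA and TNFAIP3, against 45.2% of all tested genes. Each of the 9 had at least 1 FPKM in all libraries. In HC minus LC these 5 genes were lower in HC and 0 were higher, against 25.2% of all tested genes called, 17.4% lower and 7.79% higher. In MC minus LC 4 were lower in MC, TLR2, CD14, NFKB1 and NFKBIA, and 0 higher, against 33.4% of all tested genes called, 17.1% lower and 16.2% higher. In HC minus MC 4 were lower in HC, TLR2, CD14, NFKBIA and TNFAIP3, and 0 higher, against 25.0% of all tested genes called, 17.0% lower and 8.0% higher. The libraries of the diets compared did not overlap in 40.6% of all tested genes in HC minus LC, in 47.1% in MC minus LC and in 46.4% in HC minus MC. The median log2 change of the 9 genes was -0.40 in HC minus LC, -0.17 in MC minus LC and -0.27 in HC minus MC, beside medians of -0.10, -0.0067 and -0.10 over all tested genes. Median-of-ratios scaling removes that shift of all genes in HC and gave 1494 genes higher and 1329 lower in HC minus LC, against 909 and 2030 on the deposited scale. In HC minus MC it gave 1513 higher and 1319 lower, against 933 and 1984.

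The order of the levels differed between the diets. RELA was the highest of the 10 genes in all 3 diets. In HC it was followed by MYD88 and NFKBIA, whose libraries overlapped, then by IRAK1 and NFKB1, then by TRAF6, TLR2 and CD14, in which each overlapped with the next, and last by TNFAIP3 and TLR4. In MC the order was RELA, NFKBIA, MYD88, IRAK1, TLR2, CD14, NFKB1, TRAF6, TNFAIP3 and TLR4, with overlap between NFKBIA and MYD88, between TLR2 and CD14 and between NFKB1 and TRAF6. In LC, NFKBIA lay above MYD88 without overlap, MYD88 overlapped with TLR2 and TLR2 with CD14, and both receptors stood above IRAK1, NFKB1, TRAF6, TNFAIP3 and TLR4.

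Myeloid cells, the macrophages, monocytes and dendritic cells of the tissue, are known to carry TLR2 and CD14, and their markers also differed between the diets. The summed FPKM of the 14 listed myeloid markers was 41.0 to 52.3 in HC, 19.2 to 32.5 in MC and 69.1 to 76.6 in LC. That sum is mostly C1QA, C1QB, C1QC and TYROBP, with means of 10.45, 6.57, 8.59 and 10.7 FPKM in HC. CD68, CD207, FLT3, ITGAX and CD86 had a lower mean in HC than in MC, the other listed markers a higher one. CD207, the Langerhans cell lectin, had 0.252 FPKM in HC, 0.436 FPKM in MC and 3.72 FPKM in LC by mean. It reached 1 FPKM in LC alone and was tested only because it was high there, so its calls against LC were favoured in advance. Of 9 tested markers, CD207 included, 4 were lower in HC than in LC and 0 higher, against 17.4% and 7.79% of all tested genes. Among the 4 was CSF1R, the receptor that macrophages need (log2 change -1.15, limma adjusted p = 0.000131). In MC minus LC 8 of the 9 were lower and 0 higher, against 17.1% and 16.2% of all tested genes. In HC minus MC 4 were higher in HC and 0 lower, against 8.0% and 17.0% of all tested genes. These were the complement genes C1QA, C1QB and C1QC (which shares its locus) and the receptor chain FCER1G, whereas TLR2 and CD14 were lower in HC. The ratio of TLR2 FPKM to the summed myeloid markers was 0.0980 to 0.163 in HC, 0.276 to 0.527 in MC and 0.263 to 0.338 in LC. With the mean of the 9 tested markers as a covariate, which itself differs between the diets, the HC minus LC change was -2.07 ± 0.36 for TLR2 (SE, limma adjusted p = 0.0485) and -1.97 ± 0.35 for CD14 (limma adjusted p = 0.0516). In the same fit the MC minus LC changes of TLR2 (-1.64 ± 0.57, limma adjusted p = 0.408) and CD14 (-1.51 ± 0.55, limma adjusted p = 0.424) were no longer called. Nor were the HC minus MC changes of TLR2 (-0.43 ± 0.26, limma adjusted p = 0.332) and CD14 (-0.45 ± 0.25, limma adjusted p = 0.298). No call of NFKBIA, NFKB1 or TNFAIP3 held in that fit, in which the SE of every one of these changes was larger than without the covariate. NFKBIA had -0.81 ± 0.32 in HC minus LC (limma adjusted p = 0.37), -0.21 ± 0.50 in MC minus LC (0.917) and -0.60 ± 0.23 in HC minus MC (0.147). NFKB1 had -0.47 ± 0.32 in HC minus LC (limma adjusted p = 0.642) and -0.70 ± 0.50 in MC minus LC (0.652). TNFAIP3 had -1.25 ± 0.34 in HC minus LC (limma adjusted p = 0.192) and -0.35 ± 0.24 in HC minus MC (0.395). CD163 and LYZ, further myeloid markers, are not among the genes named in the files used here.

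Some markers of lymphocytes also differed between the diets, and of the neutrophil markers MMP9 alone was called. The 13 markers of T, NK and B or plasma cells summed to 13.5 to 19.0 FPKM in HC, 12.7 to 15.7 FPKM in MC and 19.8 to 19.9 FPKM in LC. Of 6 tested, 1 was higher and 5 lower in HC minus LC, 1 higher and 4 lower in MC minus LC, and 0 higher and 1 lower in HC minus MC, against 25.2%, 33.4% and 25.0% of all tested genes called. CD3D, CD3E and CD3G, counted here, reached 1 FPKM in LC alone. They were tested only because they were high there, so their calls against LC were favoured in advance. CD3E, a chain of the T cell receptor complex, had 0.574 ± 0.323 FPKM in HC, 0.605 ± 0.344 FPKM in MC and 3.65 ± 0.131 FPKM in LC (SD, n = 3 each). Its log2 change was -1.58 in HC minus LC and -1.56 in MC minus LC. CD3E shares its locus with another gene, so its values are uncertain. CD3D, CD3G and JCHAIN were likewise lower in HC and in MC than in LC. NKG7, a granule protein of cytotoxic cells, was higher in HC (11.8 FPKM) and in MC (8.50 FPKM) than in LC (2.91 FPKM). It made up most of the lymphocyte sum in HC and in MC, so that sum conceals how far most other markers lay below LC. Of 8 neutrophil markers 6 were listed and 2 tested. Of these 2, 1 was higher and 0 lower in HC minus LC and in MC minus LC, and 0 were called in HC minus MC. The shares of all tested genes called were 25.2%, 33.4% and 25.0%, and 2 genes are too few to set against them. The 1 called was MMP9, which is also among the NF-kB target genes below. MMP9 had 4.61 ± 0.603 FPKM in HC, 4.93 ± 0.709 FPKM in MC and 1.38 ± 0.553 FPKM in LC (SD, n = 3 each). CXCR2 had 1.16 ± 0.191 FPKM in HC, 1.67 ± 0.413 FPKM in MC and 1.90 ± 0.148 FPKM in LC (SD, n = 3 each) and did not pass. CSF3R, CXCR1, MPO and ELANE had at most 0.136, 0.0634, 0.0625 and 0.702 FPKM where listed. The part of lymphocytes and neutrophils in the values of the 10 genes was not tested.

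**Figure D3:**
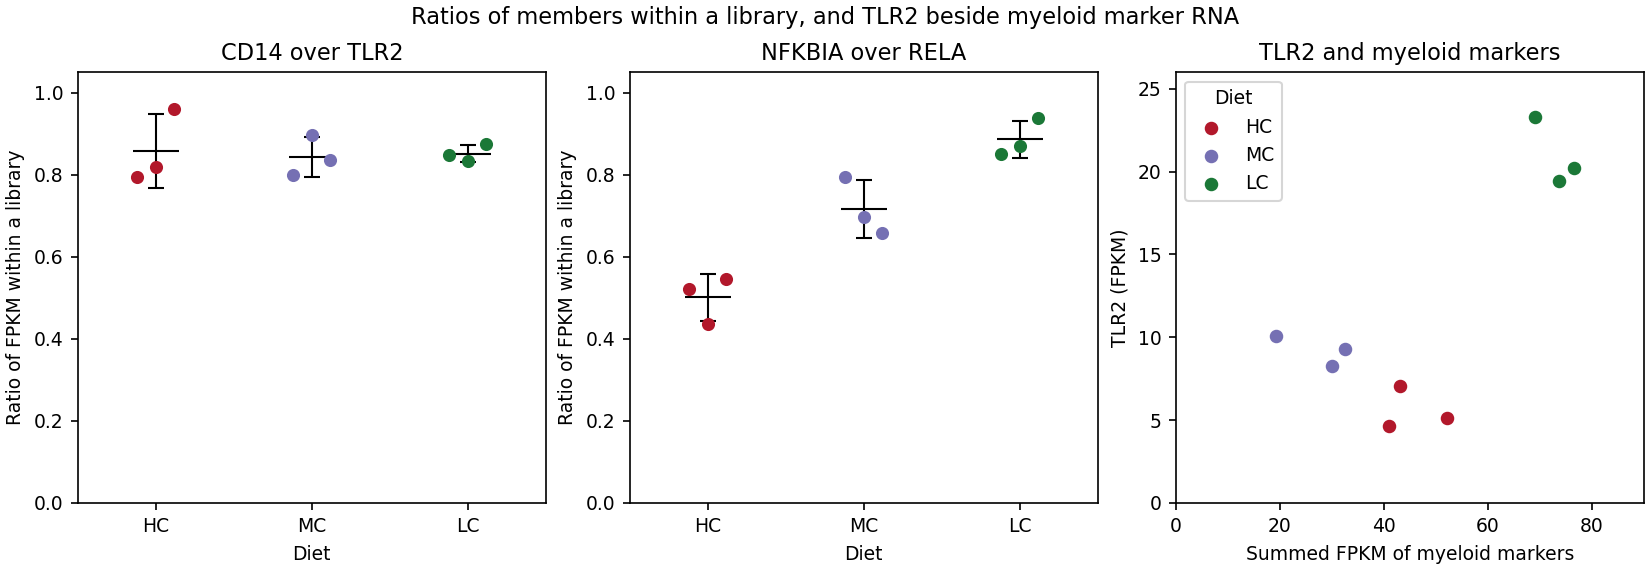
Ratio of CD14 to TLR2 and of NFKBIA to RELA within each library (left and middle, y axes starting at 0, mean and SD in black, n = 3 per diet), and TLR2 FPKM against the summed FPKM of 14 myeloid markers in each library (right). CD14 over TLR2 stays between 0.795 and 0.961, NFKBIA over RELA is at most 0.546 in HC and at least 0.850 in LC, and MC has more TLR2 than HC at a lower myeloid marker sum. That sum is mostly C1QA, C1QB, C1QC and TYROBP, and some other markers of the list have a higher mean in MC than in HC.

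The wider pathway was described with 116 further genes in 6 lists, of which 80 were tested. Of these, 4 were higher and 23 lower in HC minus LC, 13 higher and 25 lower in MC minus LC, and 9 higher and 11 lower in HC minus MC. The called share was thus 33.8%, 47.5% and 25.0%, against 25.2%, 33.4% and 25.0% of all tested genes in HC minus LC, MC minus LC and HC minus MC. Their median log2 change was -0.11, -0.16 and -0.06, beside -0.10, -0.0067 and -0.10 over all tested genes. Nothing is read as particular to a list from its counts, which are set against those shares. For each list up to 4 genes with the smallest p in the F test are named.

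Among the other receptors, 0 of 10 tested genes were higher and 4 lower in HC minus LC, 1 higher and 4 lower in MC minus LC, and 2 higher and 2 lower in HC minus MC. The called share of these receptors was 40.0%, 50.0% and 40.0%, against 25.2%, 33.4% and 25.0% of all tested genes. NOD2, the sensor of bacterial muramyl dipeptide in the cytoplasm, took the same order as TLR2, with 4.97 ± 0.726 FPKM in HC, 7.21 ± 1.00 FPKM in MC and 11.9 ± 1.24 FPKM in LC (SD, n = 3 each). Its log2 change was -1.11 ± 0.14 in HC minus LC (SE, limma adjusted p = 0.00021) and -0.65 ± 0.14 in MC minus LC (limma adjusted p = 0.00359). The NOD2 call in HC minus MC (log2 change -0.46, limma adjusted p = 0.0304) was lost after median-of-ratios scaling (limma adjusted p = 0.0614) and quantile normalization (0.108). It was also lost without HC replicate 1 (0.0843), HC replicate 3 (0.0865), MC replicate 1 (0.0784) or MC replicate 3 (0.0974). The smooth muscle covariate (0.0847) and the myeloid covariate (0.663) removed it as well. TLR5, the flagellin receptor, went another way, with 13.5 ± 1.14 FPKM in HC, 6.16 ± 0.799 FPKM in MC and 13.3 ± 2.03 FPKM in LC (SD, n = 3 each). TLR5 was lower in MC than in LC (log2 change -0.99 ± 0.14, limma adjusted p = 0.000264) and higher in HC than in MC (log2 change 1.02 ± 0.14, limma adjusted p = 0.000538), and HC minus LC did not pass (log2 change 0.04, 95% interval -0.26 to 0.33).

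The list also holds cytokine receptors that feed into the same pathway. TNFRSF1A, the main TNF receptor, had 40.1 ± 3.53 FPKM in HC, 41.5 ± 4.56 FPKM in MC and 61.2 ± 3.69 FPKM in LC (SD, n = 3 each). The log2 changes of TNFRSF1A were -0.60 in HC minus LC (limma adjusted p = 0.00616) and -0.56 in MC minus LC (limma adjusted p = 0.00654). IL1R1, the interleukin-1 receptor, had 20.4 ± 1.75 FPKM in HC, 14.6 ± 1.2 FPKM in MC and 20.8 ± 1.10 FPKM in LC (SD, n = 3 each). IL1R1 was lower in MC than in LC (log2 change -0.49, limma adjusted p = 0.00701) and higher in HC than in MC (log2 change 0.46, limma adjusted p = 0.0137). The second call was lost for IL1R1 without HC replicate 2 (limma adjusted p = 0.0557) or MC replicate 2 (0.0653). It was also lost with the smooth muscle covariate (0.11) or the myeloid covariate (0.125). The remaining Toll-like receptors were low: TLR1, TLR7, TLR8, TLR9 and TLR10 stayed under 1 FPKM in all libraries, TLR3 reached 1.15 FPKM at most, and TLR6 ran from 0.555 to 1.63 FPKM.

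Of 8 tested adaptors, 0 were higher and 1 lower in HC minus LC, 1 higher and 1 lower in MC minus LC, and 2 higher and 1 lower in HC minus MC. With 12.5%, 25.0% and 37.5% of adaptors called, against 25.2%, 33.4% and 25.0% of all tested genes, the first 2 shares lay below the background. TIRAP, which bridges TLR2 and TLR4 to MYD88, had 0.841 ± 0.210 FPKM in HC against 1.77 ± 0.437 FPKM in LC (SD, n = 3 each), a log2 change of -0.58 (limma adjusted p = 0.0176) that was lost after quantile normalization (limma adjusted p = 0.206 for TIRAP) and without HC replicate 1 (0.0529), HC replicate 3 (0.0708) or LC replicate 3 (0.0694). HSP90B1, the chaperone that folds Toll-like receptors, was higher in MC (209 ± 23.2 FPKM) than in LC (144 ± 21.1 FPKM), with a log2 change of 0.54 (limma adjusted p = 0.0195) that was lost for HSP90B1 without MC replicate 3 (0.0797). UNC93B1, which carries nucleic acid sensing Toll-like receptors to endosomes, was lower in MC (13.4 ± 2.45 FPKM) than in LC (20.4 ± 2.22 FPKM), with a log2 change of -0.58 (limma adjusted p = 0.0111) that was lost for UNC93B1 without MC replicate 2 (0.0546).

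Of 24 tested kinases and ubiquitin ligases, 0 were higher and 5 lower in HC minus LC, 3 higher and 3 lower in MC minus LC, and 0 higher and 5 lower in HC minus MC. These shares of 20.8%, 25.0% and 20.8% lay below the 25.2%, 33.4% and 25.0% of all tested genes. TRAF2, the ligase adaptor of TNF receptors, had 10.9 ± 1.95 FPKM in HC, 24.3 ± 1.68 FPKM in MC and 20.2 ± 0.820 FPKM in LC (SD, n = 3 each). The log2 changes of TRAF2 were -0.85 in HC minus LC (limma adjusted p = 0.000857) and -1.10 in HC minus MC (limma adjusted p = 0.000259). MAP3K7, the kinase that TRAF6 activates, was highest in MC (12.9 ± 0.961 FPKM, against 8.40 ± 1.23 FPKM in LC, log2 change 0.57, limma adjusted p = 0.0046). IKBKE, an IkB kinase related kinase, was lower in HC (6.13 ± 0.553 FPKM) and in MC (5.77 ± 0.747 FPKM) than in LC (11.7 ± 2.30 FPKM), with log2 changes of -0.82 and -0.89 (limma adjusted p = 0.00244 and 0.000907). TRAF1 was lower in MC (3.85 ± 0.292 FPKM) than in LC (6.47 ± 0.273 FPKM), with a log2 change of -0.62 (limma adjusted p = 0.00283).

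Of the 3 further NF-kB subunits, RELB was called in 2 contrasts, and NFKB2 and REL in none. In HC minus LC, MC minus LC and HC minus MC the called share of the subunits was 0.0%, 33.3% and 33.3%. Of all tested genes, 25.2%, 33.4% and 25.0% were called. RELB, the subunit of the alternative NF-kB pathway, had 2.02 ± 0.131 FPKM in HC, 3.91 ± 0.557 FPKM in MC and 2.11 ± 0.205 FPKM in LC (SD, n = 3 each). Its log2 change was 0.65 in MC minus LC (limma adjusted p = 0.00245) and -0.70 in HC minus MC (limma adjusted p = 0.00317). RELB and TNFAIP3 were thus both highest in MC by mean, but only for RELB was the MC minus LC difference called.

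Of 19 tested inhibitors and brakes, 1 was higher and 5 lower in HC minus LC, 4 higher and 6 lower in MC minus LC, and 0 higher and 1 lower in HC minus MC. That is 31.6%, 52.6% and 5.26% called, against 25.2%, 33.4% and 25.0% of all tested genes. ZC3H12A, a ribonuclease that destroys inflammatory transcripts, had 4.09 ± 0.526 FPKM in HC, 5.19 ± 0.647 FPKM in MC and 17.7 ± 1.63 FPKM in LC (SD, n = 3 each). The log2 changes of ZC3H12A were -1.88 in HC minus LC (limma adjusted p = 3.68e-06) and -1.60 in MC minus LC (limma adjusted p = 7.36e-06). ZC3H12A shares its locus with another gene. BCL3, a nuclear IkB protein, had 17.9 ± 4.18 FPKM in HC, 19.4 ± 2.18 FPKM in MC and 48.1 ± 0.978 FPKM in LC (SD, n = 3 each). For BCL3 the HC and MC log2 changes were -1.40 and -1.27 against LC (limma adjusted p = 9.4e-05 and 0.000114). SOCS3, a cytokine signalling inhibitor, had 1.48 ± 0.370 FPKM in HC, 1.67 ± 0.420 FPKM in MC and 4.02 ± 0.990 FPKM in LC (SD, n = 3 each). For SOCS3 the HC and MC log2 changes were -1.01 and -0.90 against LC (limma adjusted p = 0.00213 and 0.00269). ATF3, a stress-induced repressor, was the gene higher in HC (2.67 ± 0.514 FPKM) than in LC (1.13 ± 0.0606 FPKM), with a log2 change of 0.78 (limma adjusted p = 0.0028).

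Of 16 tested genes that NF-kB is known to switch on, 3 were higher and 8 lower in HC minus LC, 3 higher and 11 lower in MC minus LC, and 5 higher and 1 lower in HC minus MC. Of these target genes 68.8%, 87.5% and 37.5% were called, against 25.2%, 33.4% and 25.0% of all tested genes. IL1B, among the 16, had at most 0.429 FPKM in HC and 0.317 FPKM in MC, but 1.19 to 1.87 FPKM in LC. It was thus tested only because it was high in LC. Not tested were 9 further listed target genes, among them CCL20, TNF, SELE and CSF3, which some libraries did not list. CCL20 had 0.325 FPKM in the 1 HC library listing it, 1.46 to 4.16 FPKM in MC and 2.07 to 2.935 FPKM in LC. TNF was listed in no HC library and had 0.413 to 0.616 FPKM in LC. SELE and CSF3 were listed in MC alone. CSF1, the macrophage growth factor, had 1.42 ± 0.146 FPKM in HC, 2.03 ± 0.156 FPKM in MC and 6.45 ± 0.277 FPKM in LC (SD, n = 3 each). The log2 changes of CSF1 were -1.62 in HC minus LC (limma adjusted p = 6.02e-06) and -1.30 in MC minus LC (limma adjusted p = 1.55e-05). TNFAIP2, a gene induced by TNF, took the order of TLR2, with 3.45 ± 0.736 FPKM in HC, 9.57 ± 0.923 FPKM in MC and 15.7 ± 2.23 FPKM in LC (SD, n = 3 each) and a log2 change of -1.92 in HC minus LC (limma adjusted p = 8.46e-06). The complement component C3 and the chemokine CCL5 were lowest in MC. C3 had 1.63 ± 0.312 FPKM in HC, 0.452 ± 0.192 FPKM in MC and 6.18 ± 2.02 FPKM in LC (SD, n = 3 each). Its log2 changes were -1.41 in HC minus LC (limma adjusted p = 0.000618) and -2.27 in MC minus LC (limma adjusted p = 1.55e-05). CCL5 had 1.31 ± 0.0711 FPKM in HC, 0.521 ± 0.364 FPKM in MC and 5.16 ± 1.03 FPKM in LC (SD, n = 3 each). Its log2 changes were -1.40 in HC minus LC (limma adjusted p = 0.000421) and -2.04 in MC minus LC (limma adjusted p = 2.09e-05). The call of CCL5 in HC minus MC was lost without HC replicate 1 (limma adjusted p = 0.0638), HC replicate 2 (0.0861), HC replicate 3 (0.0752) or MC replicate 3 (0.0943). CCL5 is also made by T cells and other cytotoxic cells, of whose markers CD3E was highest in LC and NKG7 highest in HC. The part of such cells in the CCL5 values was not tested. The genes higher in both HC and MC than in LC were NOS2, MMP9 and BCL2L1, named after their values were seen, with log2 changes in HC minus LC of 1.71, 1.26 and 0.71 (limma adjusted p = 0.000121, 0.000523 and 0.00382). MMP9 is also on the neutrophil list, and the other 5 listed neutrophil markers summed to 1.25 to 1.79 FPKM in HC, 1.37 to 2.03 FPKM in MC and 2.07 to 2.79 FPKM in LC. With LC3 alone for LC, the MC minus LC calls of IL1R1, UNC93B1, HSP90B1, MAP3K7, RELB, SOCS3 and ATF3 were lost. The HC minus LC call of SOCS3 was lost in that fit as well. Without MC replicate 2 the MC minus LC call of ATF3 was also lost (limma adjusted p = 0.0638).

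**Figure D4:**
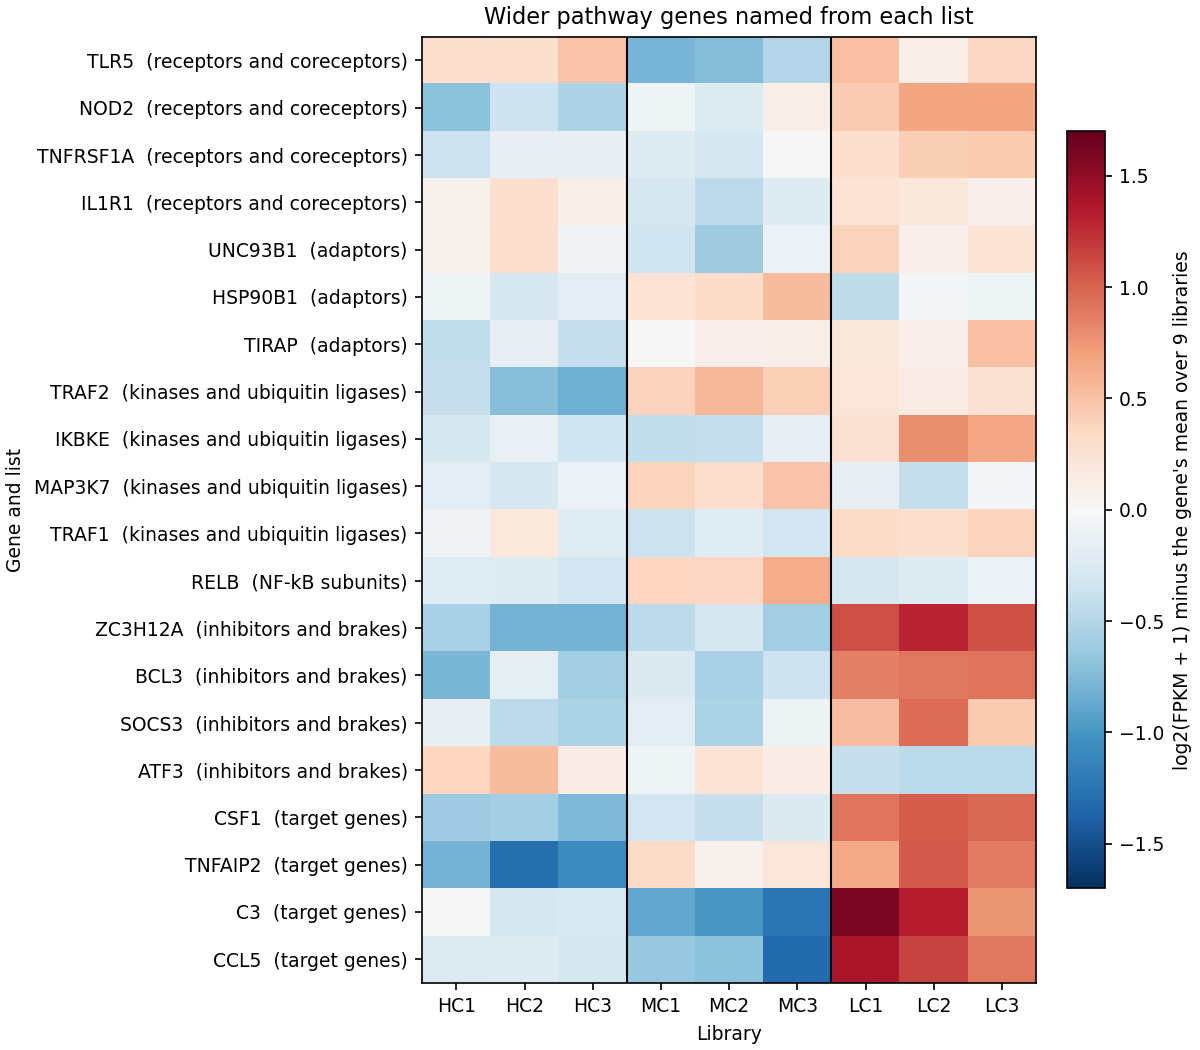
Log2(FPKM + 1) of 20 genes of the wider pathway (rows, with their list) in each of the 9 libraries (columns), after subtracting each gene's mean over the libraries, with red for higher and blue for lower values. ZC3H12A, BCL3, SOCS3 and CSF1 are red in the 3 LC libraries alone, TLR5 is blue in MC, and RELB and MAP3K7 are red in MC.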

How the data were processed

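Each library came as 1 file in which the authors deposited gene symbols, loci and FPKM values. Libraries were assigned by the deposit's own record of each file's sample, and in 1 file, that of LC2, the column name carries another number than the sample title. The submitters' processing notes name Bowtie 1.2.0 and Cufflinks 2.2.1, and per the labels' protocols the libraries were made with a TruSeq RNA kit. No source states the unit, and FPKM was inferred from Cufflinks and from the values. Genome build, annotation and strand: not given in the sources used here. Loci served to place the 10 genes and to find genes sharing one (2491 of 18383). Chromosome names come from the goat RefSeq table, matched by symbol. Genes on several lines were summed, and lines whose names had turned into dates were left out.

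The deposited FPKM values were analysed as log2(FPKM + 1), a scale on which changes of low genes look smaller than they are. A gene was tested if every library listed it and 3 or more libraries had 1 FPKM or more, which left 11668. Another 211 genes had 1 FPKM or more in 3 or more libraries but were left out because some library did not list them. In limma 3.58.1 (R 4.3.3) the 9 libraries entered a single model with diet as the factor (trended, robust moderation, two-sided tests, residual degrees of freedom 6, adjusted p threshold 0.05). The fit was tested on simulated data. Depth is unknown, so no counting interval is given. The 10 genes, the lists and the alternatives were chosen with earlier results of these data known. Named are the 10 genes, up to 4 genes per list by F test p, the 3 genes most like each of the 2 members with the smallest F test p, and markers. Alternatives (15 set at the start, 3 added after seeing the data) changed the pseudocount, filter, scaling, moderation, libraries, block and covariates. Figures used Python 3.11.15 and matplotlib 3.10.9.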

Additional observations from a re-analysis of the deposited data

How the results depend on the processing

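Of the 27 log2 changes of the 9 tested members, 7 kept their direction and their side of the threshold in all 18 alternatives. Of these 7 only TLR2 in HC minus LC was a call, and the others never passed. Every other call of a member was lost in some alternative. Of the 486 values these gave, 34 lost a call, 0 gained one and 23 changed sign. TLR2 in HC minus LC kept its call in all 18, with log2 changes from -2.07 to -1.62. CD14 in HC minus LC ran from -1.97 to -1.57 and lost its call only with the myeloid marker mean as covariate (limma adjusted p = 0.0516). That covariate, chosen after seeing the data like LC3 alone and the smooth muscle covariate, differs between the diets itself. It left 1650 genes in the F test, against 5274 without it, and 37, 0 and 299 genes, 1, 0 and 0 members, and 1, 0 and 4 wider pathway genes in HC minus LC, MC minus LC and HC minus MC.

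Of the 10 genes, those that changed sign under an alternative were not called without it. IRAK1 in HC minus LC ran from -0.18 (without LC replicate 1) to 0.15 as single libraries were left out, with -0.05 without HC replicate 2 and -0.048 without HC replicate 3, and was -0.08 with LC3 alone for LC, -0.11 with the smooth muscle covariate and -0.37 with the myeloid covariate. IRAK1 in MC minus LC ran from -0.08 (without LC replicate 1) to 0.26 and was -0.50 with the myeloid covariate. IRAK1 in HC minus MC was 0.0082 with median-of-ratios scaling, 0.021 after quantile normalization, 0.14 with the myeloid covariate and -0.16 to 0.0067 (without HC replicate 1) with a library left out. TRAF6 in HC minus MC was 0.08 with median-of-ratios scaling, 0.12 after quantile normalization, 0.16 with the myeloid covariate and at most 0.024 with a library left out (MC replicate 3), the lowest being -0.08. RELA was 0.02 in HC minus LC with median-of-ratios scaling. RELA in HC minus MC was 0.07 with that scaling, 0.0071 after quantile normalization, 0.10 with the myeloid covariate and -0.10 to 0.0079 (without MC replicate 3) with a library left out. In MC minus LC the myeloid covariate also turned MYD88 (-0.40) and TNFAIP3 (-0.90). Of the wider pathway it turned 3 changes that were called without it. These were HSP90B1 (-0.13, against 0.54) and RELB (-0.11, against 0.65) in MC minus LC and CCL5 (-0.01, against 0.64) in HC minus MC. The cause was not tested.

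Leaving out 1 library gave 3955 to 5747 genes in the F test, 1753 (without HC replicate 3) to 2798 in HC minus LC against 2939, 2834 to 3929 in MC minus LC against 3894, and 1596 to 4022 in HC minus MC against 2917. In HC minus MC the count fell to 1789 without HC replicate 2, 1596 without HC replicate 3, 1660 without MC replicate 1 and 1689 without MC replicate 2. Called members ran from 3 (without HC replicate 1 or LC replicate 3) to 5 in HC minus LC, from 3 to 4 in MC minus LC and from 4 to 4 in HC minus MC, and wider pathway genes from 18 to 29, 30 to 38 and 10 to 24. After quantile normalization 3 members were called in HC minus LC. With LC3 alone for LC, 1287 genes and 3 members were called in HC minus LC, and 2191 genes, 2 members and 18 wider pathway genes in MC minus LC. That fit assumes LC3 to vary like the other diets. With the smooth muscle covariate 953 genes and 7 wider pathway genes were called in HC minus MC.

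The labels do not say what the replicate numbers mark, and deviations of same-numbered libraries from their diet means correlated from -0.076 to 0.504 across genes, over 0.1 in 6 of 9 pairs. Libraries with different numbers correlated from -0.494 (MC3 and LC1) to 0.31 (HC2 and MC3). Not every library correlated best with its own number, and the main fit held no replicate block. With the replicate block 3751 genes passed in HC minus LC, 4613 in MC minus LC and 3871 in HC minus MC, and no call of a member changed.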
